A study of Mus musculus with 60 samples.

Results

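Skeletal muscle fibre genes were followed through mammary glands and epithelium-free fat pads of ovariectomized mice given back ovarian hormones. The members were 40 genes that encode the contractile, calcium-handling and energy-supplying proteins of striated fibres, and a probe set was taken when its annotation gave exactly 1 gene symbol from that list. Of the 40 genes, 38 had a probe set (71 of 36899 probe sets) and 29 had at least 1 probe set bright enough to test (45 of 23055). Neb, the giant ruler of the thin filament, and Mybpc2, the fast fibre myosin-binding protein C, had none. The 38 genes comprised 13 typical of fast fibres, 7 typical of slow fibres and 18 used by both.

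All mice were ovariectomized and injected once a day for 4 days. Epithelium-free fat pads came from 3 animals given 2 µg of 17-beta-estrogen with 1 mg of progesterone (E+P CFP). Whole mammary glands came from 5 animals given both hormones (E+P), 4 given estrogen alone (E), 4 given progesterone alone (P) and 4 given 100 µl of sesame oil (vehicle, V). For the vehicle samples the description field names progesterone, but sesame oil is given by title and treatment protocol, and the title was followed. The labels state neither strain nor age, nor how the fat pads were freed of epithelium, nor whether they came from animals that also gave a gland. The glands' lymph nodes had been removed at collection. RNA of each of the 20 animals went onto 3 Affymetrix array types, for 60 arrays.

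Skeletal muscle contracts when thick filaments of myosin pull on thin filaments of actin within the sarcomere. Calcium released from the sarcoplasmic reticulum sets off the pull by binding troponin on the thin filament. Fast and slow fibres build the same machine from different copies of its parts, so that most troponin, myosin and pump proteins exist as a fast and a slow version. The mammary gland and its fat pad are not muscle, but they lie under the skin close to sheets of skeletal muscle.

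Values are the deposited signal intensities, scaled to a common trimmed mean, in signal units. Signals below the 25th percentile of an array type were set to that floor (13.5, 28.5 and 19.8 units for array types A, B and C) before log2 was taken. The trimmed means of the deposited arrays lay between 150.03 and 150.10, and their medians lay between 48.4 and 88.3. The Gapdh control signal at the 3′ end over that at the 5′ end, a sign of RNA integrity, was 4.39, 1.26 and 2.13 in the fat pads, against 1.49 to 2.76 in E+P, 1.24 to 1.72 in E, 1.35 to 2.49 in P and 1.97 to 3.69 in V. Of the 9 tested luminal epithelium markers, 9 were lower in fat pads than in E+P glands (limma, Benjamini-Hochberg adjusted p under 0.05). Over all tested probe sets 7.9% passed in either direction. The summed signals of the markers were 93.1 to 149 units in E+P CFP against 4534 to 7256 in E+P. Elf5, Epcam, Krt19 and Krt8 were at the floor in every fat pad.

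One gland stood apart from the rest of its group in the muscle genes themselves. Estrogen animal 1 (E 1) was above the mean of the other 3 E animals for 28 of the 29 tested muscle genes, and more than 2-fold above it for 23 of them. E 1 was picked out on these same genes, and the share of all tested probe sets with this pattern was not counted. Because of this gland, the main results that include the E group are given with and without E 1.

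Fast fibre genes were high in all 3 fat pads. A score per animal was formed as the mean, over the genes of a class, of the log2 deviation from the mean of all 20 animals. The fast fibre score over 12 genes was 2.55, 2.03 and 2.77 in the fat pads. Its range was -0.95 to 0.09 in E+P, -1.10 to 1.88 in E, -1.10 to -0.43 in P and -0.92 to 0.61 in V. The fat pads lay above every gland, E 1 with 1.88 being the nearest. The slow fibre score over 4 genes was 0.94, 0.22 and 0.45 in the fat pads, and its range was -0.53 to 0.21 in E+P, -0.33 to 0.31 in E, -0.28 to 0.44 in P and -0.52 to 0.45 in V. Here the fat pads overlapped the glands. The fast score exceeded the slow score by 1.61, 1.81 and 2.32 in the fat pads. In the glands this difference was -0.53 to -0.09 in E+P, -0.85 to 1.57 in E, -1.07 to -0.56 in P and -0.88 to 0.54 in V. The 1.57 was that of E 1, close to the lowest fat pad, and without E 1 the E range was -0.85 to -0.11. The score of the 13 genes shared by both fibre types was 2.17, 1.53 and 2.18 in the fat pads and -0.58 to -0.15 in E+P. It was 1.40 in E 1, the nearest gland. These scores describe the animals and carry no test.

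**Figure D1:**
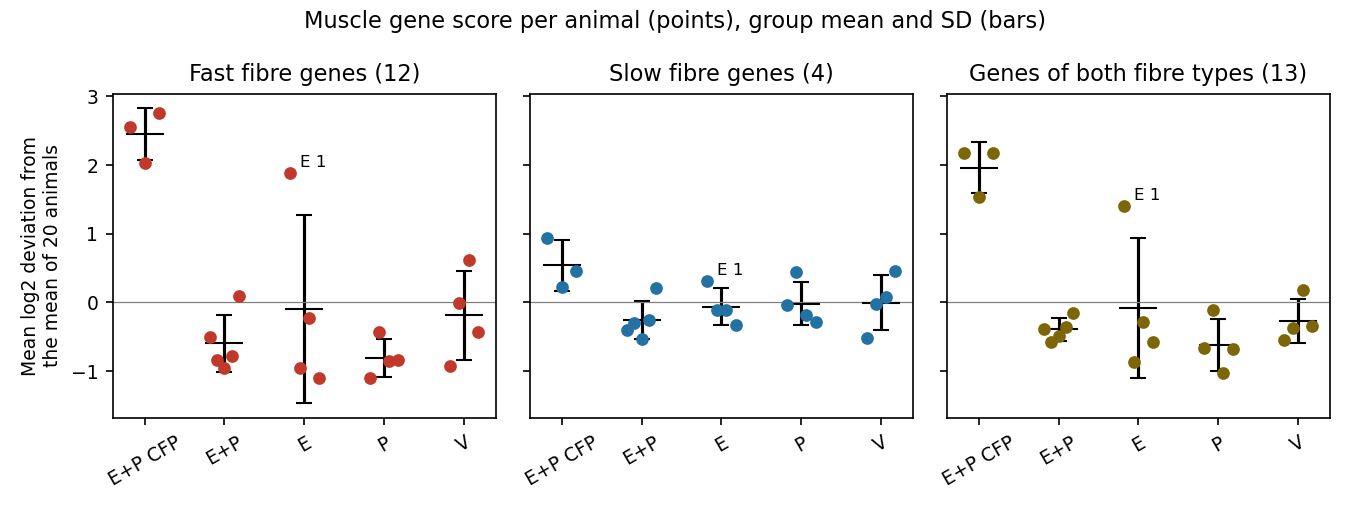
Muscle gene scores (mean log2 deviation from the mean of 20 animals, y axis) per animal in the groups E+P CFP, E+P, E, P and V, for 12 fast, 4 slow and 13 shared genes. Points are animals, and bars are the group mean and SD. Fat pads have the highest fast and shared scores, followed by E 1, while the slow scores overlap.

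Against E+P glands, 23 of the 29 tested muscle genes were higher in fat pads and 0 were lower (limma, Benjamini-Hochberg adjusted p under 0.05). Over all tested probe sets 7.9% passed in either direction and 2.66% passed as higher in fat pads. The genes that rose were 11 of 12 fast genes, 11 of 13 shared genes and 1 of 4 slow genes. In 23 of 29 genes every fat pad lay above every E+P gland, a pattern found in 6.41% of all tested probe sets. The median log2 difference was 2.64 over the 29 genes, against -0.03 over all 12233 tested genes. For 11 of the 29 genes no probe set would have been tested on the glands alone (Actn3, Cox6a2, Mb, Mybpc1, Myh1, Myh7, Pgam2, Pygm, Ryr1, Tnni2 and Trdn), and the same held for the representative probe set of Ckm, so this count is a description and not support. With no filter on dim probe sets, 21 of all 38 genes rose, with a median of 1.54, where 6.91% of all 15964 genes passed in either direction and their median was -0.01. With the filter applied to the 17 glands alone, an alternative added after the data were seen, 13 of 18 genes rose, where 7.9% of 22614 probe sets passed. In bulk tissue, more muscle cells and more RNA per muscle cell cannot be told apart.

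**Figure D2:**
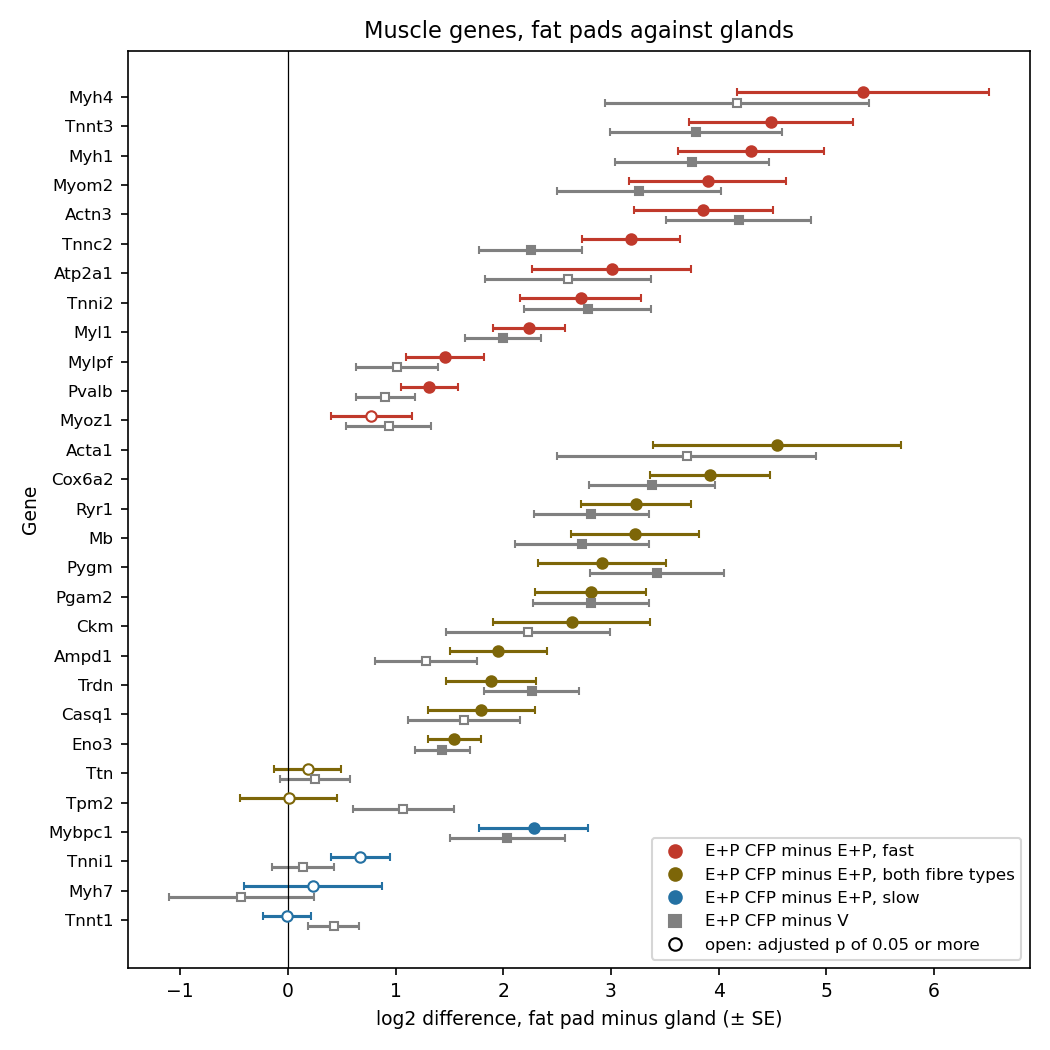
Log2 differences of fat pads minus glands (x axis, with SE) for the 29 tested muscle genes, grouped into fast, shared and slow. Circles set E+P CFP against E+P and squares set E+P CFP against V, and filled symbols passed an adjusted p of 0.05. The fast and shared genes lie to the right of 0, with Myh4 farthest at 5.34, and 3 of the 4 slow genes have open symbols.

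Promoters of a fast, a shared and a slow gene are shown because their tested signals ran from a large rise to no measured rise. They are those of Myh4, the fastest myosin heavy chain, Acta1, the actin of skeletal muscle in all fibres, and Tnnt1, the slow troponin T. Each covers 250 bases before to 50 bases after the annotated start (RefSeq, GRCm38.p6), 5′ to 3′ on the gene's strand. They lie at chr11:67237562-67237861 (plus strand, Myh4), chr8:123894726-123895025 (minus strand, Acta1) and chr7:4515926-4516225 (minus strand, Tnnt1). Capitals mark E-boxes (CANNTG, the core bound by MyoD-type factors), CArG boxes (bound by serum response factor) and MEF2 sites, found on either strand, and adjoining matches can merge or overlap.
Myh4: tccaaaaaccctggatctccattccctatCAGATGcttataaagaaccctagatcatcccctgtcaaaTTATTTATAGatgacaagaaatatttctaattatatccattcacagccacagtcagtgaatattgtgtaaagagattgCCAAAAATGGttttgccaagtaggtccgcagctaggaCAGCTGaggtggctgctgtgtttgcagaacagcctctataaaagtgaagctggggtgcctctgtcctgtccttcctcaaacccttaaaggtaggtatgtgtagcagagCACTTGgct
Acta1: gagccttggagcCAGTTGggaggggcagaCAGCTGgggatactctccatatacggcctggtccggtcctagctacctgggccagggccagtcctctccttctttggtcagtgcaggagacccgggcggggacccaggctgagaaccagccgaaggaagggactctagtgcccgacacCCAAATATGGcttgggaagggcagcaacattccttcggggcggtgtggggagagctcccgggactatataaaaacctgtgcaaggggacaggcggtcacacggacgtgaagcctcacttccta
Tnnt1: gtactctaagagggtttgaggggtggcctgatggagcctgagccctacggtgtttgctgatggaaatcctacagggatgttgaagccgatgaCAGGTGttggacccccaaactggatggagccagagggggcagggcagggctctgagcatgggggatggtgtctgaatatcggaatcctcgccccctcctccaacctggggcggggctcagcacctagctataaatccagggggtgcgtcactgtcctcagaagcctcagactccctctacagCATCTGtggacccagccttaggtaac

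In these windows Myh4 held 3 E-boxes, 1 CArG box and 1 MEF2 site, Acta1 held 2 E-boxes and 1 CArG box, and Tnnt1 held 2 E-boxes and neither of the others. RefSeq promoters were at hand for 29 of the 40 members. A CArG box stood in 17.24% of them (Acta1, Ldb3, Myh4, Myl3 and Myom1), against 1.573% of all 27025 promoters of that length. A MEF2 site also stood in 17.24% (Myh1, Myh4, Pgam2, Pvalb and Ttn), against 3.264% of all. E-boxes were common everywhere, in 82.76% of members' promoters and 72.15% of all, and TATAAA stood in 20.69% and 14.16%. Of these genes, Ldb3, Myl3 and Myom1 were too dim to test. A match is a string of letters and was not tested as a bound site.

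In the thick filament, the fast myosin heavy chains Myh4 and Myh1 rose, and Myh2 was too dim to test. Myh4 encodes the IIb heavy chain of the fastest fibres. Its signal was 2294, 917 and 2571 units in the fat pads, against 33.4, 34.2, 13.6, 39.3 and 252 in E+P. It was 808, 14.3, 233 and 13.3 in E, 6.5, 47.0, 32.5 and 20.5 in P and 10.2, 135, 378 and 130 in V. The lowest fat pad was above every gland, and the glands of one group differed widely among themselves in E, E+P and V. The log2 difference from E+P was 5.34 ± 1.17 (SE, adjusted p = 0.00556), a 40.4-fold higher signal. A second tested Myh4 probe set did not follow (-0.28 ± 0.38, adjusted p = 0.76).

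Myh1, the IIx heavy chain, had 407, 336 and 454 units in the fat pads, against 25.2, 26.8, 22.3, 16.1 and 3.1 in E+P. The groups did not overlap, and the difference was 4.30 ± 0.68 (adjusted p = 0.000255). Myh2, the IIa heavy chain of fast oxidative fibres, had 3.0 to 9.4 units in the fat pads and 2.3 to 11.4 in E+P. Myh7, the heavy chain of slow fibres and heart, had 85.7, 23.2 and 19.5 units in the fat pads against 22.2 to 61.1 in E+P (0.23 ± 0.64, adjusted p = 0.894). Its highest signals were in glands, 161 units in V 4 and 131 in P 2. Myosin heavy chain genes are close copies, and the Myh7 probe set carries a suffix for probes shared within a family, so signal from relatives cannot be separated. The representative probe sets of Tnnc2, Myom2 and Ckm, which rose, carry the same suffix and have the same limit.

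The fast light chains rose with the heavy chains. Myl1, the fast essential light chain, had 1489, 1063 and 1824 units in the fat pads, against 330, 213, 311, 292 and 395 in E+P (2.24 ± 0.33, adjusted p = 0.000137). Mylpf, the fast regulatory light chain, had 238, 208 and 211 units in the fat pads, against 97.7, 60.9, 70.5, 56.1 and 133 in E+P (1.46 ± 0.36, adjusted p = 0.014). Neither gene overlapped between the groups, and the Mylpf call was lost without E+P CFP 1 (adjusted p = 0.0696). Their slow partners were not tested. Myl2, the slow regulatory light chain, had 5.7 to 7.8 units in the fat pads and 3.4 to 17.2 in E+P. Myl3, the slow essential light chain, had 0.8 to 1.9 in the fat pads and 1.1 to 2.0 in E+P.

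Mybpc1, the slow form of myosin-binding protein C, was the 1 slow gene that rose. It had 191, 92.5 and 277 units in the fat pads, against 44.8, 50.3, 10, 19.1 and 19.3 in E+P (2.28 ± 0.51, adjusted p = 0.00555). Its other probe sets ran the same way, at 3.14 ± 0.52 and 1.80 ± 0.47. The call was lost without E+P CFP 3 (adjusted p = 0.0522). Ttn, the spring that spans the sarcomere, had 116, 91.9 and 85.2 units in the fat pads, against 53.7 to 126 in E+P, and did not pass (0.19 ± 0.31, adjusted p = 0.81).

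On the thin filament, actin and the fast troponins rose. Acta1 had 2175, 1841 and 2453 units in the fat pads, against 70.4, 79.8, 58.2, 75.5 and 269 in E+P. It had 1619, 7.5, 222 and 4.7 in E, 5.9, 135, 15.1 and 15.2 in P and 51.9, 193, 452 and 162 in V. All fat pads were above all glands, with E 1 close behind. The difference from E+P was 4.54 ± 1.15 (adjusted p = 0.0164), and the call was lost without E+P CFP 1 (adjusted p = 0.0643) or E+P CFP 3 (0.0575).

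The 3 fast troponin subunits rose, and their slow partners did not pass or were not tested. Tnnt3, the fast tropomyosin-binding subunit, had 442, 305 and 538 units in the fat pads, against 4.2, 2.5, 6.5, 8.3 and 66.6 in E+P. It had 243, 1.5, 28.8 and 1.4 in E, 1.3, 25.9, 0.9 and 3.6 in P and 1.8, 26.9, 67.8 and 33.5 in V. Since 4 of 5 E+P glands were at the floor, the difference of 4.49 ± 0.76 (adjusted p = 0.000544) understates its size. Tnnt1, its slow partner, had 91.9, 77.2 and 78.2 units in the fat pads, against 90.3, 74.8, 63.4, 81.6 and 109 in E+P, and its groups overlapped (-0.005 ± 0.22, adjusted p = 0.995). A second Tnnt1 probe set, too dim to test, read 147, 51.5 and 98.4 units in the fat pads against 14.9 to 16 in E+P and 12.7 to 25.3 in the other glands, so the probe sets of this gene disagreed.

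Tnnc2, the fast calcium-binding subunit, had 629, 295 and 612 units in the fat pads, against 45.6, 39.7, 46.1, 51.1 and 99.2 in E+P (3.19 ± 0.46, adjusted p = 7.87e-05). Its other probe set was at the floor in every animal. Tnnc1, the slow and cardiac subunit, had 12.6, 23.2 and 52.4 units in the fat pads against 4.2 to 23.7 in E+P and was not tested. The inhibitory subunits were both tested. Tnni2 had 72.7, 89.8 and 123 units in the fat pads, against 6.5, 6.8, 2.7, 2.9 and 16.8 in E+P, of which 4 were at the floor (2.72 ± 0.56, adjusted p = 0.00345). The Tnni2 call was lost with the floor at the 10th percentile (adjusted p = 0.12). Tnni1, the slow form, had 160, 197 and 145 units in the fat pads, against 54.7, 90.4, 92.5, 162 and 167 in E+P (0.67 ± 0.28, adjusted p = 0.162). Tpm2, the beta tropomyosin that smooth muscle also uses, had 144, 159 and 165 units in the fat pads and 144 to 183 in E+P (0.01 ± 0.45, adjusted p = 0.996).

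In the Z disc and M band, 2 of the 3 fast fibre genes rose. Actn3, the alpha-actinin of fast fibres, had 508, 197 and 436 units in the fat pads, against 39.2, 30.9, 34.1, 15.1 and 13.4 in E+P (3.86 ± 0.64, adjusted p = 0.000462). Its partner Actn2, used in all fibres and heart, had 3.0 to 9.2 units in the fat pads and 5.7 to 10.5 in E+P and was not tested. Myom2, the M band protein of fast fibres, had 497, 222 and 746 units in the fat pads, against 32.0, 22.6, 17.4, 20.4 and 72.6 in E+P (3.90 ± 0.73, adjusted p = 0.00105). A further Myom2 probe set agreed in direction (4.41 ± 0.72), while another did not (-0.63 ± 0.86). Myoz1, a calcineurin-binding protein of the fast Z disc, had 111, 191 and 175 units in the fat pads against 73.5 to 135 in E+P. It was the 1 fast gene that did not pass (0.77 ± 0.38, adjusted p = 0.256).

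The remaining Z disc and M band members were untested. Ldb3, a Z disc scaffold, read 65.1, 42.2 and 125 units in the fat pads and 7.0 to 11.9 in E+P on its array type A probe set. Myom1, an M band protein of all fibres, read 32.7, 12 and 63.1 in the fat pads and 2.6 to 16.5 in E+P. Tcap, which caps titin, read 11.0, 9.4 and 56.4 in the fat pads and 7.6 to 48.1 in E+P. Of these 3, Ldb3 alone had no overlap between its fat pads and its E+P glands.

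Genes that release and recapture calcium rose in fat pads with 1 exception too dim to test. Ryr1, the calcium release channel, had 243, 97.2 and 197 units in the fat pads, against 11.4, 13.9, 16.4, 16.6 and 35.1 in E+P (3.23 ± 0.51, adjusted p = 0.000259). Trdn, which anchors calsequestrin to that channel, had 214, 152 and 217 units in the fat pads against 13.5 to 65.4 in E+P (1.89 ± 0.42, adjusted p = 0.00551). Atp2a1, the fast calcium pump, had 531, 471 and 651 units in the fat pads, against 121, 45.2, 27.1, 71.5 and 138 in E+P (3.01 ± 0.74, adjusted p = 0.0129). None of these overlapped between the groups on the probe sets named. The Atp2a1 call was lost without E+P CFP 1 (adjusted p = 0.0511) or E+P CFP 3 (0.0535).

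Pvalb, the calcium buffer of fast fibres, also rose. It had 1639, 996 and 1407 units in the fat pads, against 517, 439, 471, 495 and 796 in E+P (1.31 ± 0.26, adjusted p = 0.00265). A second tested Pvalb probe set did not pass (0.47 ± 0.21, adjusted p = 0.191). Casq1, which stores calcium in the sarcoplasmic reticulum, had 321, 203 and 352 units in the fat pads, against 118, 76.8, 91.4, 107 and 41.3 in E+P (1.80 ± 0.50, adjusted p = 0.0283). This call was among the least stable, being lost without E+P CFP 1 (adjusted p = 0.118), E+P CFP 3 (0.107), E+P 2 (0.0543) or E+P 5 (0.0739), and another Casq1 probe set read 0.31 ± 0.24. Sln, a small inhibitor of the calcium pump, was dim, at 16.2 to 53.4 units in the fat pads and 20 to 64.5 in E+P.

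All 7 energy metabolism members passed the test as higher in fat pads, although Cox6a2, Mb, Pgam2 and Pygm, and the representative probe set of Ckm, were too dim to be tested on the glands alone. Eno3, the muscle enolase, had 362, 393 and 471 units in the fat pads, against 152, 109, 131, 166 and 145 in E+P (1.54 ± 0.25, adjusted p = 0.00026). Cox6a2, the heart and muscle subunit of cytochrome oxidase, had 395, 142 and 321 units in the fat pads, against 20.6, 15.2, 12.8, 18.2 and 20.3 in E+P (3.92 ± 0.56, adjusted p = 7.42e-05). Mb, the oxygen store myoglobin, had 380, 86.8 and 213 units in the fat pads, against 26.2, 6.7, 21.9, 34.4 and 9.1 in E+P (3.23 ± 0.60, adjusted p = 0.00126). For all 3 genes the lowest fat pad was above the highest E+P gland.

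Pygm, which breaks down muscle glycogen, had 137, 130 and 187 units in the fat pads, against 15.4, 10.8, 5.2, 32.4 and 33.4 in E+P (2.91 ± 0.59, adjusted p = 0.00307). Pgam2, the muscle phosphoglycerate mutase, had 96.0, 65.5 and 135 units in the fat pads and 1.1 to 6.4 in E+P. With all 5 E+P glands at the floor, it was at least 7.02-fold higher (adjusted p = 0.00119), a call lost with the floor at the 10th percentile (adjusted p = 0.149). Ampd1, the muscle AMP deaminase, had 163, 134 and 168 units in the fat pads against 15.3 to 65.1 in E+P (1.96 ± 0.45, adjusted p = 0.00745). No fat pad fell within the E+P range for these genes.

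Ckm, the muscle creatine kinase, gave mixed readings. Its representative probe set had 196, 94.2 and 205 units in the fat pads, against 19.8, 6.5, 19.1, 40 and 48.5 in E+P (2.64 ± 0.73, adjusted p = 0.0278). A brighter one had 1247, 443 and 1611 units in the fat pads, against 165, 168, 102, 87.7 and 42.4 in E+P (3.25 ± 0.68, adjusted p = 0.00287). Another had overlapping groups (-0.40 ± 0.46, adjusted p = 0.7). A further one, with a plain suffix and too dim to test, read 16.6, 38.9 and 70.7 units in the fat pads against 20.8 to 54.3 in E+P. The call of the first was lost without E+P CFP 1 (adjusted p = 0.126), E+P CFP 3 (0.106), E+P 1 (0.0521), E+P 2 (0.0659) or E+P 3 (0.056).

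The 3 fat pads were not alike in size of signal. Among the 23 genes that rose, E+P CFP 2 was the lowest of the 3 for 21 genes, and E+P CFP 3 was the highest for 16 and E+P CFP 1 for 7. Their Gapdh ratios, which were 4.39 in E+P CFP 1, 1.26 in E+P CFP 2 and 2.13 in E+P CFP 3, also differed. With the ratio added to the model, an alternative chosen after seeing the data, 23 genes passed. With only 3 fat pads this fit cannot decide the part of RNA integrity, which was not tested. In all, 14 of the 29 genes had every fat pad above every one of the 17 glands, as had 1.37% of all tested probe sets. Leaving E 1 aside, 21 genes had every fat pad above the other 16 glands, as had 1.46% of all tested probe sets. The representative probe sets of 12 of the 29 genes, against 441 of all 23055, would not have been tested on the glands alone. The shares over all probe sets are therefore not a like baseline, and both counts are a description and not support.

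**Figure D3:**
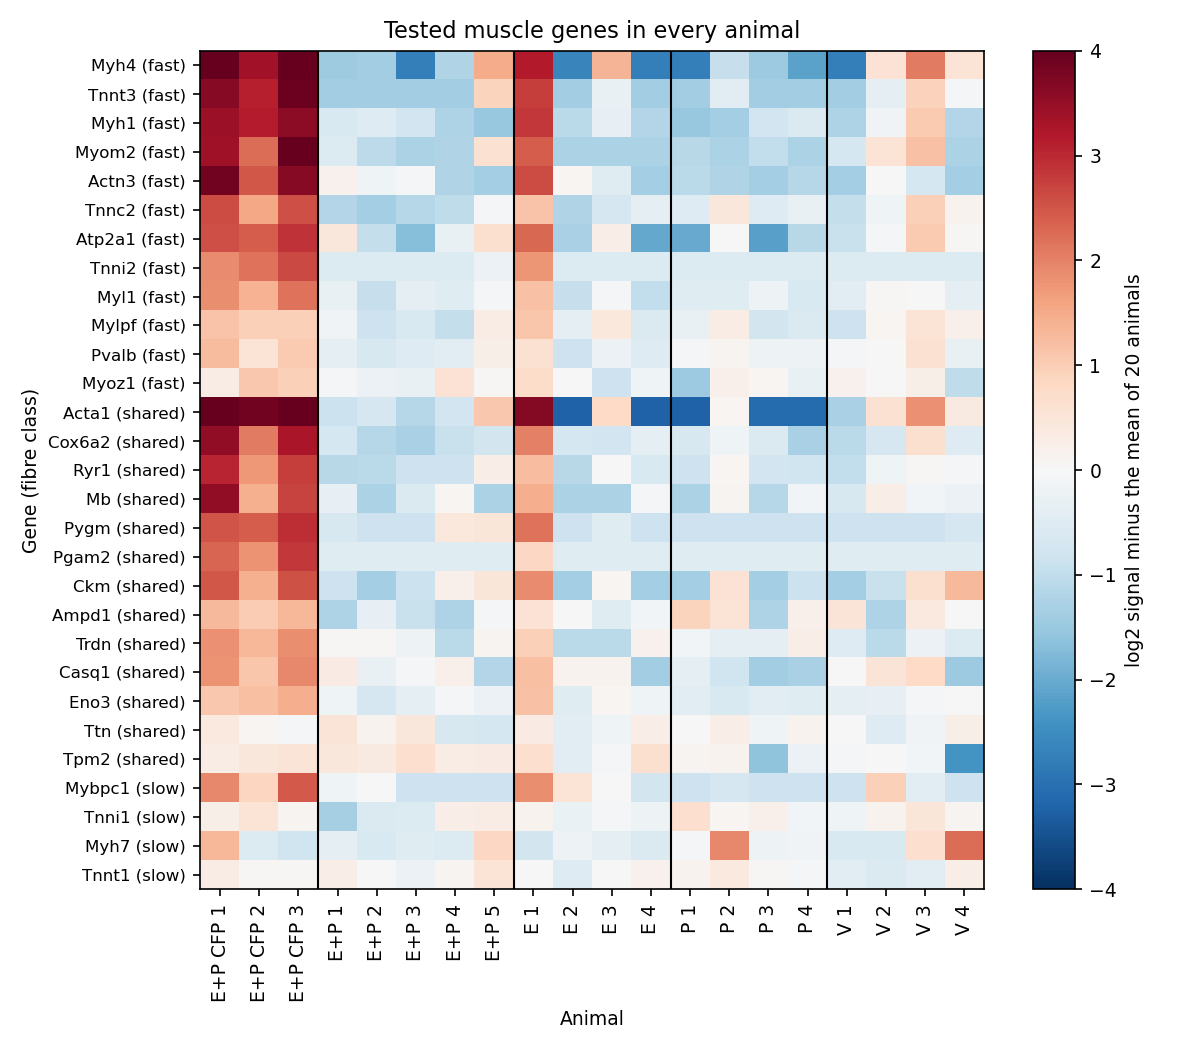
Log2 signal of the 29 tested muscle genes (rows, with fibre class) in each of the 20 animals (columns), as the deviation from the gene's mean, with lines between groups. The 3 fat pads and E 1 are red for most fast and shared genes, while the bottom rows Tnni1, Myh7 and Tnnt1 show no such block.

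Set against vehicle glands, the fat pads again had higher muscle signals, and this comparison shares its fat pads with the one above. Of 29 genes, 15 were higher and 0 lower, where 3.09% of all tested probe sets passed in either direction and 0.685% passed as higher. They were 7 of 12 fast genes, 7 of 13 shared genes and, of the 4 slow genes, Mybpc1. In 23 genes every fat pad lay above every V gland, against 5.6% of all tested probe sets. Of the genes that passed, Actn3, Cox6a2, Mb, Mybpc1, Myh1, Pgam2, Pygm, Ryr1, Tnni2 and Trdn would not have been tested on the glands alone. Both counts are therefore a description and not support. The median difference was 2.25 over the 29 genes and -0.01 over all tested genes, and without a filter 14 of 38 genes passed, with a median of 1.36, where 2.64% of all 15964 genes passed. With the filter set on the 17 glands alone, 6 of 18 genes passed, where 3.03% of 22614 probe sets did.

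Among the genes that passed, and with that limit of the filter, Actn3 differed most (4.19 ± 0.67, adjusted p = 0.000538). Its V glands read 13, 35.4, 21.6 and 12.8 units, below the fat pad values given above. Tnnt3 (3.79 ± 0.80, adjusted p = 0.00776), Myh1 (3.75 ± 0.71, 0.00307), Pygm (3.43 ± 0.62, 0.00187) and Cox6a2 (3.38 ± 0.58, 0.00116) followed. Myom2 (3.26 ± 0.76, adjusted p = 0.015), Ryr1 (2.82 ± 0.54, 0.00307), Tnni2 (2.78 ± 0.59, 0.00792), Mb (2.73 ± 0.62, 0.0148), Trdn (2.26 ± 0.44, 0.00307) and Tnnc2 (2.25 ± 0.48, 0.00812) also passed. All 4 V glands were at the floor for Pgam2, at least 7.02-fold higher in fat pads (adjusted p = 0.00337), and for Tnni2, at least 6.89-fold higher. The remaining calls were Myl1 (2.00 ± 0.35, adjusted p = 0.00136), Eno3 (1.43 ± 0.26, 0.00165) and Mybpc1 (2.04 ± 0.53, 0.0342), whose fat pads overlapped V, since V 2 read 97.1 units.

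Myh4 and Acta1 did not pass against V although their differences were large (4.17 ± 1.22, adjusted p = 0.0733, and 3.70 ± 1.21, adjusted p = 0.118). Their V glands were spread widely, as listed above, and so was the E group, which shares the estimate of spread. Without E 1 the count was 19, with Myh4 (adjusted p = 0.0331), Acta1 (0.0275), Atp2a1 (0.0205) and Pvalb (0.0302) passing. Leaving out other animals ended the calls of Mybpc1 (adjusted p = 0.0738 to 0.172 without E+P CFP 1, E+P CFP 3, V 1, V 3 or V 4), Myom2 (0.0523 to 0.0853 without E+P CFP 1, E+P CFP 3, V 1 or V 4), Mb (0.142 without E+P CFP 1, 0.0625 without E+P CFP 3), Tnnc2 (0.0588 without E+P CFP 1) and Tnni2 (0.0663 without E+P CFP 3). Myh4 also passed without V 3 (0.0468), as did Pvalb (0.0364), and Atp2a1 passed without E 4 (0.0464).

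Among intact glands, no muscle gene passed the test in any hormone comparison. In E against V, 0 of 29 passed (limma, smallest adjusted p = 0.453, with 0 at an unadjusted p under 0.05), where 0.182% of all tested probe sets passed. The median difference was 0.11, and it was -0.27 without E 1 and 0.34 without E 4. In P against V, 0 passed (smallest adjusted p = 0.565, 1 at an unadjusted p under 0.05), where 0% of all passed. The median was -0.26, and it was -0.49 without V 1, -0.43 without P 2 and -0.15 without V 3. In E+P against V, 0 passed (smallest adjusted p = 0.327, 3 at an unadjusted p under 0.05), where 0.464% of all passed. The median was -0.41, and it was -0.19 without V 3. The groups did not overlap for Tpm2, with 144 to 183 units in E+P against 21.9 to 115 in V (1.06 ± 0.41, adjusted p = 0.327), nor for Eno3, with 114 to 128 units in P against 134 to 170 in V (-0.29 ± 0.24, adjusted p = 0.795). Over all tested probe sets, 2.46% had every E+P gland above every V gland and 2.06% had every P gland below every V gland.

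In the comparisons of both hormones with 1, the outcome was the same. In E+P against E, 0 of 29 genes passed (smallest adjusted p = 0.516, 0 at an unadjusted p under 0.05), where 0.143% of all tested probe sets passed. The median was -0.33, and it was 0.14 without E 1 and -0.67 without either E 2 or E 4. In E+P against P, 0 passed (smallest adjusted p = 0.363, 1 at an unadjusted p under 0.05), where 0.36% of all passed. The median was 0.06, and leaving out single animals gave 0.01 to 0.11. Tpm2 again did not overlap, with 144 to 183 units in E+P against 37.9 to 127 in P (0.81 ± 0.41, adjusted p = 0.471), as was so of 2.24% of all tested probe sets. These comparisons share animals with those against V.

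E 1 was the gland nearest to the fat pads in muscle signal. It was the highest of all 17 glands for 23 of the 29 genes. Its score over the 29 genes was 1.45, against -0.80, -0.24 and -0.76 in E 2, E 3 and E 4, 1.56 to 2.18 in the fat pads, -0.69 to -0.001 in E+P, -0.84 to -0.17 in P and -0.70 to 0.34 in V. Gene by gene, the excess of E 1 over the mean of E 2, E 3 and E 4 had a median of 1.81 and was 5.56 for Acta1, 4.51 for Myh4, 3.81 for Tnnt3 and 3.68 for Myh1. It was 1.92 for the slow gene Mybpc1, 0.09 for Tnnt1 and -0.36 for Myh7, the 1 gene below. Across the 29 genes this excess and the difference of fat pads from E+P had a Pearson correlation of 0.911, as a description, with no animals in common between the 2 differences. The same correlation for the other E, P and V glands, each against the rest of its group, ran from -0.71 (E 4) and -0.67 (E 2) to 0.63 (V 3), and V 3 was above the rest of V for 23 of 29 genes and over 2-fold above for 9. Luminal markers in E 1 summed to 6086 units, within the 3988 to 7813 of the E glands. The share of all tested probe sets with the same patterns was not counted. The representative probe sets of 12 of the 29 genes would not have been tested on the glands alone. The counts and correlations of single glands are therefore a description and not support.

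**Figure D4:**
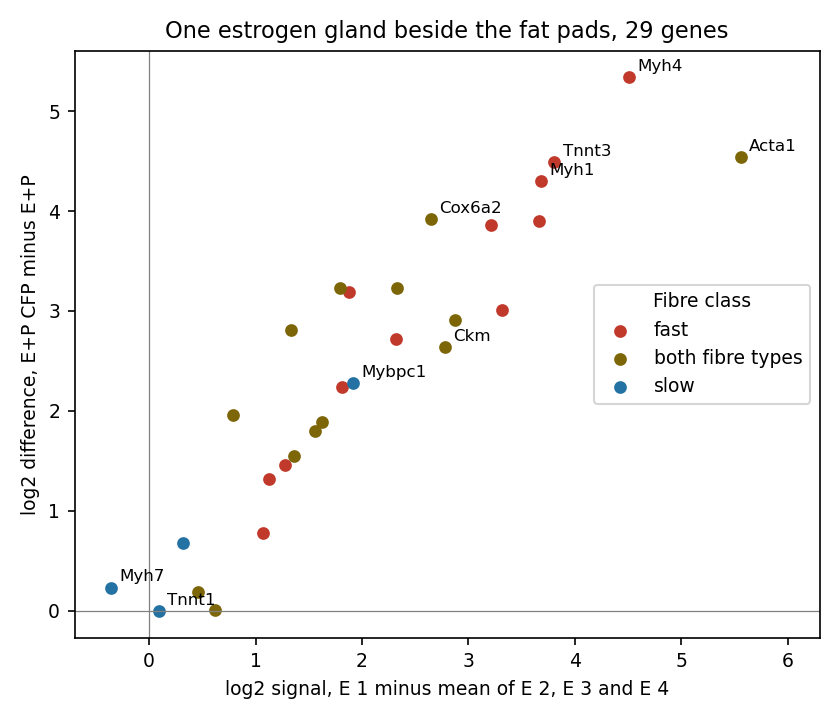
For the 29 tested muscle genes, the log2 excess of E 1 over the mean of E 2, E 3 and E 4 (x axis) beside the log2 difference of fat pads minus E+P glands (y axis), coloured by fibre class. Genes with large differences on one axis, such as Myh4, Acta1 and Tnnt3, have them on the other, and Tnnt1 and Myh7 lie near 0 on both.

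Other muscle genes and muscle types were read for comparison. Of 59 further fibre genes, 28 were tested and 4 were higher and 1 lower in fat pads than in E+P, with a median of 0.62. For this list and those that follow, 7.9% of all tested probe sets passed against E+P in either direction and 2.66% passed as higher. Smpx, a small costamere protein, had 375, 196 and 353 units in the fat pads against 4.1 to 56.2 in E+P (3.03 ± 0.47, adjusted p = 0.000157). Klhl41, a sarcomere assembly protein, had 212, 95.9 and 117 units in the fat pads against 4.3 to 33.3 in E+P (2.18 ± 0.36, adjusted p = 0.000255), and Fhl1 (1.12 ± 0.28, adjusted p = 0.0132) and Cmya5 (2.06 ± 0.59, 0.0328) rose too. Tpm1, a tropomyosin also made by smooth muscle and myoepithelium, fell (-1.19 ± 0.14, adjusted p = 7.15e-06). Of the 5 tested myogenic regulator and satellite cell genes 0 passed, and of the 5 tested cardiac genes 0 passed, with Myh6, Ryr2 and Myl7 at the floor in all fat pads. Of the 9 tested smooth muscle genes, 3 fell (Acta2, Tagln and Cnn1), with summed signals of 1947 to 2317 units in E+P CFP against 3019 to 3753 in E+P.

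Markers of white fat were also higher in fat pads than in E+P glands. Of 10 tested white adipocyte genes, 8 were higher in fat pads than in E+P (median 0.73), with summed signals of 41431 to 46961 units in E+P CFP against 23871 to 32620 in E+P and none at the floor. Over all tested probe sets 2.66% passed as higher against E+P. Against V, 2 of the 10 passed as higher (median 0.30), where 0.685% of all tested probe sets did. Their part in the muscle difference was not tested. Of 5 tested brown adipocyte genes, 1 fell and 3 had differences above 0, with a median of 0.03. The one that fell was Ucp1, at the floor in all fat pads (-3.73 ± 0.52, a lower bound of the size, adjusted p = 5.61e-05). Cox8b (0.59), Cidea (0.04) and Cox7a1 (0.03) were above 0 and did not pass. Of 13 tested lymphocyte and plasma cell genes, 0 passed, with summed signals of 2163 to 2778 units in E+P CFP and 423 to 3177 in E+P.

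Of genes outside the lists, the pattern most like the mean of the muscle genes over the 20 animals was that of Mylk4, a myosin kinase relative, with a Pearson correlation of 0.92 (0.75 over the 17 glands alone). Tmem38a, a cation channel of the sarcoplasmic reticulum, followed at 0.89, and Eepd1 at 0.84, Aldoa, the muscle aldolase, at 0.83, Fasn at 0.82, Romo1 and Hebp1 at 0.81, Ndufa3 at 0.80 and Rpl3l and Slc25a39 at 0.79. Over the 17 glands alone the values of these genes after Mylk4 were lower, from 0.32 (Romo1) to 0.65 (Eepd1). The animals of a group share treatment and tissue, so these values are a description of likeness with no test. The log2 differences of fat pads minus E+P were 2.09 for Mylk4 and 1.57 for Tmem38a. Both genes were picked for likeness to a score that was highest in these same fat pads, so the differences are a description and not support.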

How the data were processed

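Total RNA of 20 animals (5 groups, 60 arrays) was measured on Affymetrix array types A, B and C. Per the submitters' processing notes, the authors computed the deposited linear signal intensities in MAS5, in a version not given in the sources used here. The 3 arrays sharing a group and replicate number were taken as 1 animal. Each array was scaled to its type's 2% trimmed mean, floored at the 25th percentile and log2-transformed. Testing required a probe set to be above its array type's 50th percentile in at least 3 animals, which can favour genes bright only in the 3 fat pads. Differences from values at the floor are understated.

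Models were fitted per array type with limma 3.58.1 in R 4.3.3, with 5 group means and an intensity trend, and Benjamini-Hochberg adjustment ran over all 23055 tested probe sets with a threshold of 0.05. On simulated data the fit was tested and recovered the seeded changes. Each gene was represented by 1 probe set. Array type A was preferred over B and B over C, plain suffixes over special ones, and then the brightest was taken. Per-animal values are given for fast and slow partners, the brightest member of each role, up to 10 called members per comparison and members opposing the median. Of 36899 probe sets, 29131 had 1 symbol, 724 several, 6846 none and 198 were controls. Symbols came from the platform annotation, and promoters from RefSeq. Motif counts use the first promoter row of each gene.

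The members and lists were chosen with earlier results of these data known. Same-numbered animals of different groups did not deviate together, so numbers were not used as pairs. The labels call the samples biologic replicates; the number of arrays limits precision. Alternatives changed scaling, floor, filter, variance model, probe set and animals.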

Additional observations from a re-analysis of the deposited data

Results flagged for a closer look

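An animal far from the others of its group was looked for in 132 sets of values, and 21 were past Dixon's 95% critical value. Chance flags about 1 in 20 of independent sets. These sets share animals, and many hold values at the floor. That rate is therefore not a like baseline, and the count is a description. The gap to the nearest animal, as a share of the group's range of log2 values, is given for each flagged set.

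In E, animal E 1 was far above the others for Cox6a2 (0.869), Pygm (0.883), Myom2 (1.0), Pgam2 (1.0) and Tnni2 (1.0).

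In E+P, animal E+P 5 was far above the others for Acta1 (0.794), Myh7 (0.848), Pvalb (0.726), Ryr1 (0.784), Tnnc2 (0.724) and Tnnt3 (1.0). It was also flagged as highest for Tnni2 (1.0), and E+P 4 was far below for Trdn (0.733).

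In P, animal P 2 was far above the others for Acta1 (0.948), Myh7 (0.952), Ryr1 (0.917) and Tnnt3 (1.0). It was also flagged as highest for Mybpc1 (1.0). In V, animal V 4 was far above for Tnnt1 (0.836) and far below for Tpm2 (0.959), and it was flagged as highest for Pygm (1.0). A gap of 1.0 arises where all other animals of the group were at the floor.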

How the results depend on the processing

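Against E+P, 23 genes were higher in fat pads with a median of 2.64. The count was 15 with a filter on the mean over all animals and 13 with a filter over the 17 glands, both chosen after seeing the data. The median was 1.80 with the floor at the 40th percentile, 1.48 with an offset in place of the floor, 1.54 with no filter and 1.88 with the filter over the 17 glands. Leaving out single animals gave counts of 18 to 23 and medians of 2.41 to 2.78.

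Against V, the count of 15 was 9 with the floor at the 10th percentile, 9 with the filter on the mean and 6 with the filter over the 17 glands. The median of 2.25 was 1.63 with the floor at the 40th percentile, 1.45 with an offset, 1.36 with no filter and 1.53 with the filter over the 17 glands. Leaving out single animals gave counts of 11 to 19 and medians of 1.94 to 2.59. Fewer genes were tested under the stricter filters; other causes of these shifts were not tested.

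With the replicate number as a replicate block, 22 genes passed against E+P and 14 against V, with medians of 2.74 and 2.27; Casq1 (adjusted p = 0.0817) and Mybpc1 against V (0.0807) lost their calls. Leaving out E 1, V 4 and E+P CFP 1 together gave 22 and 12. In all alternatives run, the hormone comparisons among glands had 0 calls. With no filter, Tnnc2 was represented by a probe set at the floor and read 0.00 in both fat pad comparisons, and against E+P the calls of Acta1 (adjusted p = 0.0603), Casq1 (0.0823) and Ckm (difference 0.02, on another probe set) were lost. With the floor at the 10th percentile Ckm (0.0789), Pgam2 (0.149) and Tnni2 (0.12) lost theirs against E+P. Dim probe sets limit what can be said of 9 untested members.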
